A study of Homo sapiens with 18 samples.

Results

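The small nucleolar RNA host genes described here are the genes named SNHG followed by a number, together with GAS5, ZFAS1, DANCR and EPB41L4A-AS1. They were picked by a rule on gene names, which was set with earlier results of these data known. The table of whole-transcriptome reads held 29 of them among 38055 genes. The table's own symbol column gave 25, and 4 (EPB41L4A-AS1, SNHG10, SNHG14 and SNHG30) carried no symbol there and were found through their Ensembl identifiers. SNHG22 is no member here, because its identifier carried the symbol SCARNA17 in the table.

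HCT116 is an epithelial cell line from a human colorectal carcinoma, and all cells here were wild type. They were grown in McCoy's 5A medium with fetal bovine serum and collected as whole-cell RNA on day 3, at a calculated 50% confluency, or on day 5, at 250%, when the cells were crowded. The question was how gene expression differs with cell density. Each day had 3 libraries that the labels call biological replicates, made from total RNA depleted of ribosomal RNA, with molecular identifiers in the adapters. Day and density changed together, so the effect of time in culture and that of crowding cannot be told apart. Whole-transcriptome libraries of day 7 were not analysed here.

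A small nucleolar RNA, or snoRNA, guides chemical modification or cleavage of ribosomal RNA. The box C/D kind guides methylation of the ribose and the box H/ACA kind guides conversion of uridine to pseudouridine, while small Cajal body RNAs, or scaRNAs, do the same for spliceosomal RNAs. In human cells most of these guides are cut from introns, either of coding genes, many of which encode ribosomal proteins, or of the noncoding host genes described here. The spliced RNA that remains is often bound by ribosomes and then removed by nonsense-mediated decay, the pathway that destroys transcripts with an early stop codon. Several host genes, GAS5 first among them, start transcription at a run of pyrimidines like that of ribosomal protein messages. This run, the 5′ terminal oligopyrimidine tract, lets the kinase complex mTORC1 and the binding protein LARP1 tie the fate of an RNA to growth.

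The tract was searched for at the exact annotated first base of each host gene. It was defined as a C at the first base that opens a run of at least 5 C or T. At the RefSeq start (assembly GRCh38.p14) 6 of the 25 host genes with an entry carried it, or 24.0%, against 4.07% of 35116 promoters and 47 of 78 ribosomal protein genes. At the start of the canonical GENCODE transcript (GRCh38) it was found in 4 of 29, or 13.8%, against 4.23% of 19288 genes and 60 of 79 ribosomal protein genes. Together 8 host genes had the tract at one start or the other. The starts of the 7 that had enough reads to be tested are shown because this grouping rests on them. The eighth, SNHG18, had a run of 21 bases at its RefSeq start but almost no reads, and its start is not shown. Each has 30 bases, 5′ to 3′ on the gene's strand, with the tract in capitals.

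For ZFAS1, SNHG32, SNHG12, SNHG5 and SNHG19 the window is the RefSeq one, 10 bases before the start and 20 from it, at chr20:49278632-49278661 (plus strand), chr6:31834906-31834935 (plus), chr1:28581854-28581883 (minus), chr6:85678714-85678743 (minus) and chr16:2155339-2155368 (minus).

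ZFAS1: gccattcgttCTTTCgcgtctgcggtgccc

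SNHG32: cattttagttCTTTTTgcgaagtgggctcg

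SNHG12: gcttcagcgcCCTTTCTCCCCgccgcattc

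SNHG5: gcacttcggtCTTTTacgtcggccttcgcg

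SNHG19: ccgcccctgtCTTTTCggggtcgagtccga

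For GAS5 and SNHG29 the tract stood at the canonical GENCODE start and not at the RefSeq start. The first 30 bases of GAS5 lie at chr1:173867960-173867989 (minus strand). Those of SNHG29 start at base 16439037 of chromosome 17 (plus strand) and run past its first exon of 24 bases.

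GAS5: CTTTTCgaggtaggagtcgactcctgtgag

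SNHG29: CTTTTCattcccgttgttatggagggccac

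SNHG1 is shown for contrast, at chr11:62855866-62855895 (minus strand), 10 bases before its RefSeq start and 20 from it. Its first base was a C, but the pyrimidine run that this C opened was shorter than 5 bases, and so it was counted as lacking the tract.

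SNHG1: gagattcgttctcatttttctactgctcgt

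The 6 libraries held 27470978 to 56689369 reads on genes. The deposited values are whole reads divided by 1 factor per library and are called scaled reads here. A gene was tested when it reached 10 scaled reads in at least 3 of the 6 libraries, which 20129 genes did. The epithelial markers EPCAM, KRT8, KRT18, KRT19 and CDH1 were present in every library, and VIL1 stood under 10. EPCAM had 6932 to 7403 scaled reads in all 6 and was not called, while the other 4 were called higher on day 5. CDH1 had 572, 669 and 672 on day 3 and 3787, 4024 and 4009 on day 5. The sum of the 6 epithelial markers was 36902 to 54942 on day 3 and 100051 to 101108 on day 5. Of 8 markers of blood, endothelial and connective tissue cells 4 stayed under 10 in every library. The sum of the 8 was 523 to 609 on day 3 and 1156 to 1226 on day 5, nearly all of it COL1A1, and its part in the results was not tested.

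Scaled reads of nearly every host gene were lower in the crowded cells. Of the 29, 27 were tested, and 25 of these fell between day 3 and day 5 while 0 rose (limma on log2(scaled reads + 1), Benjamini-Hochberg adjusted p under 0.05 over all genes tested). In the same fit 27.6% of all genes tested fell and 29.3% rose, and when each library was centred on its median gene 7156 genes fell, 4670 rose and the host genes again gave 25 and 0. At least 2-fold falls were called for 10 host genes, against 7.60% of all genes. For 25 of the 27 every day 3 library stood above every day 5 library, which held for 31.7% of all genes. The median log2 fold change of the 27 was -0.87, with quartiles of -1.16 and -0.55, whereas the median over all genes tested was 0.01, with quartiles of -0.49 and 0.53. In RNA from whole cultures, fewer cells with an RNA and less of it per cell cannot be told apart. Scaled reads are relative to the other RNAs of a library and do not give an amount per cell.

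Many abundant genes fell. Of 6223 genes with a day 3 mean of at least 1000 scaled reads, 2658 fell, or 42.7%, with a median of -0.13. All 16 host genes above that level fell. Replicate 3 of day 3, the library with the fewest reads, gave the highest day 3 value for 23 of the 27. It also gave the highest day 3 values of KRT8, KRT18 and KRT19, but the lowest of COL1A1. How many of all genes tested were highest in it was not counted. Without that library 25 host genes were still called lower and 1, SNHG28, higher.

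**Figure D1:**
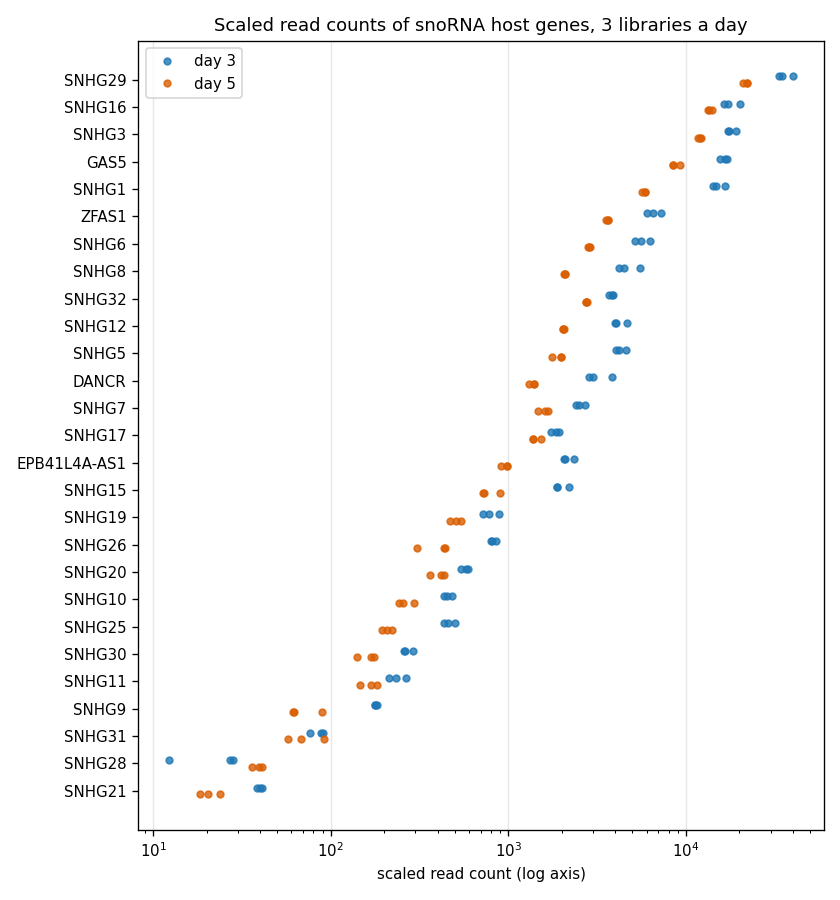
Scaled reads of the 27 host genes tested (horizontal log axis), 1 point per library, with 3 libraries on day 3 (blue) and 3 on day 5 (orange). Day 5 points lie to the left of day 3 points for 25 genes, overlap for SNHG31 and lie to the right for SNHG28.

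Transcript composition moved with the day across the whole table. Over 19288 genes the log2 fold change had a Spearman correlation of 0.44 with the GC content of the canonical transcript and of 0.30 with its length, given as a description since genes are not independent replicates. The median log2 fold change ran from -0.37 in 3015 genes under 40% GC to 0.61 in 2611 genes at 60% GC or more, and was -0.36 in 4688 genes whose transcript was shorter than 1000 bases. The host genes had a median GC content of 47.9%, close to the 48.2% of all genes, but a shorter median transcript of 1316 against 2361 bases. Among the 27 themselves the correlation was 0.17 with GC content and -0.12 with length. After each library was corrected for GC content and length, 22 of the 27 were called lower and 0 higher, against 25.9% of genes called lower. Their median was then -0.53, against -0.01 for all genes. SNHG20 and SNHG30 were no longer called, and SNHG16 stood at 0.037. This correction was chosen after seeing the data.

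**Figure D2:**
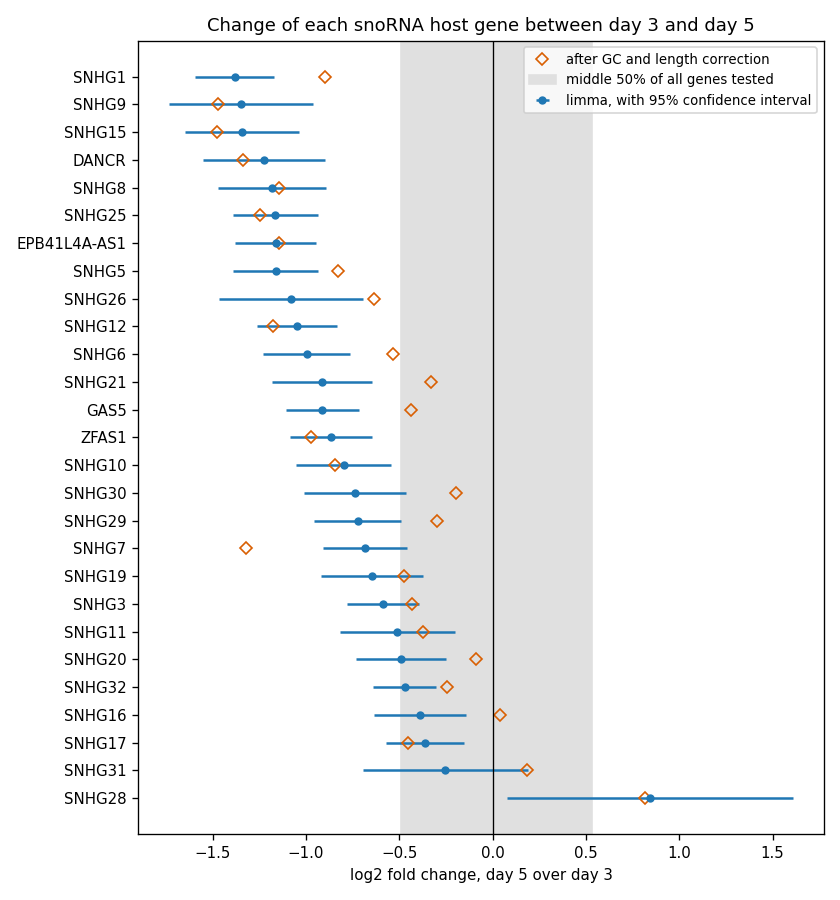
Log2 fold change from day 3 to day 5 for the 27 host genes tested, from limma with its 95% confidence interval (blue) and after correction for GC content and length (open orange diamonds). The grey band holds the middle 50% of all genes tested, and 22 of the blue points lie to its left, while SNHG16 and SNHG31 cross 0 after correction.

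The hosts of box C/D guides include the most abundant members. All 11 that RefSeq gives box C/D guides alone fell, with log2 fold changes from -1.38 to -0.39 and a median of -0.87. SNHG29, whose introns hold SNORD49A, SNORD49B and SNORD65, had the most reads of any host gene. It stood at 34569.6, 33235 and 39869.8 scaled reads on day 3 and at 20948, 21984 and 22132 on day 5. The lowest day 3 library was therefore well above the highest of day 5, and limma gave a log2 fold change of -0.72 (SE 0.10, adjusted p 0.00131). After the correction for GC content and length it was -0.30 (adjusted p 0.0241).

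SNHG1 fell the furthest of all host genes. Its introns carry a series of guides from SNORD22 to SNORD31, and its spliced RNA has long been known to have little coding capacity. Scaled reads were 14714, 14252 and 16488 on day 3 and 5878, 5663 and 5868 on day 5. Day 5 held 0.383 of the day 3 mean, and the log2 fold change was -1.38 (SE 0.09, 95% confidence interval -1.59 to -1.17, limma adjusted p 0.000194). With the correction for GC content and length it was -0.90 (adjusted p 0.000601), and SNHG15 and SNHG9, both at -1.47, then lay lowest.

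ZFAS1, which hosts the SNORD12 guides beside the gene ZNFX1, had 6526, 6057 and 7219.8 scaled reads on day 3. On day 5 it had 3623, 3569 and 3631, a tight group below all 3 earlier libraries (log2 fold change -0.87, SE 0.09, limma adjusted p 0.00058). SNHG6, the host of SNORD87, went from 5586, 5159 and 6276 to 2803, 2870.3 and 2831 scaled reads, so that the day 5 mean was 0.500 of the day 3 mean. Its log2 fold change was -0.996, or -0.53 after the correction for GC content and length. SNHG5, the host of SNORD50A and SNORD50B, showed a larger fall. It had 4176, 4047 and 4616 scaled reads on day 3 and 1772, 1976 and 1984 on day 5 (log2 fold change -1.16, SE 0.09, limma adjusted p 0.000292).

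SNHG32 and SNHG16 changed least among these abundant hosts. SNHG32, in the major histocompatibility complex, carries SNORD48 and SNORD52. It moved from 3856, 3699.7 and 3901 scaled reads to 2747, 2732 and 2779, with little spread on either day (log2 fold change -0.47, SE 0.07, limma adjusted p 0.00198), and stood at -0.24 (adjusted p 0.0205) after the correction for GC content and length. SNHG16, the host of the SNORD1 guides, had 16418, 17156 and 20110.0 scaled reads on day 3 and 13459.6, 13360.0 and 14065 on day 5. The groups did not overlap, and the log2 fold change was -0.39 (SE 0.10, limma adjusted p 0.0181). That call was lost without day 5 replicate 1 (adjusted p 0.0570) or without day 5 replicate 2 (adjusted p 0.0607), and after the GC and length correction the value was 0.037 (adjusted p 0.741).

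Less abundant box C/D hosts fell too. SNHG25, a short gene that hosts SNORD104, had 457, 436 and 503 scaled reads on day 3 and 194, 207 and 221 on day 5 (log2 fold change -1.16, SE 0.09). SNHG26, the host of SNORD93, had 849, 811 and 799.5 on day 3 and 433, 304 and 441 on day 5, with a wider spread on the second day (log2 fold change -1.08, SE 0.16, and -0.64 after the correction for GC content and length). SNHG19, the host of SNORD60, had 716, 783 and 890.2 on day 3 and 511, 541 and 469 on day 5. Its groups were apart by more than the spread of either (log2 fold change -0.65, SE 0.11). SNHG30, the host of SNORD7, had 261, 258 and 291 on day 3 and 176, 141 and 169 on day 5. These 4 genes had limma adjusted p values of 0.000297, 0.00194, 0.00362 and 0.00224 in this order. SNHG30 was not called after the correction for GC content and length (log2 fold change -0.20, adjusted p 0.172).

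GAS5 and SNHG12 host guides of both kinds. GAS5, first found as a transcript that builds up in growth-arrested cells and a classic target of nonsense-mediated decay, carries 11 guides by RefSeq. It had 16489, 15618 and 17051 scaled reads on day 3 and 8487, 8431 and 9202 on day 5. So GAS5 was lower, not higher, in every library of the crowded cells (log2 fold change -0.91, SE 0.08, 95% confidence interval -1.11 to -0.72, limma adjusted p 0.000369), and it stayed lower after the correction for GC content and length (-0.44, adjusted p 0.00376). SNHG12, with SNORD99 and several box H/ACA guides, had 4064, 3989.6 and 4633 scaled reads on day 3 and 2066, 2029 and 2031 on day 5. The 3 libraries of day 5 lay almost on one another (log2 fold change -1.05, SE 0.09, limma adjusted p 0.000324).

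Of the 10 hosts of box H/ACA guides alone, 9 fell and SNHG31 was not called. Their median log2 fold change was -0.92. SNHG3 hosts SNORA73A and SNORA73B, guides that act in cleavage of the ribosomal RNA precursor. It had 17317, 19096 and 17438 scaled reads on day 3 and 12202, 11628 and 11982 on day 5 (log2 fold change -0.59, SE 0.08, limma adjusted p 0.00134). SNHG3 overlaps RCC1, the exchange factor of the GTPase Ran, on the same strand, so reads of shared exons cannot be given to one of them with certainty. RCC1 itself had 3592, 4204 and 5197 scaled reads on day 3 and 4481, 3708 and 4129.5 on day 5, and the days overlapped (log2 fold change -0.06, adjusted p 0.745).

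DANCR, named for its role in holding back differentiation and the host of SNORA26, showed one of the larger falls. It had 2829, 2979.6 and 3846 scaled reads on day 3, where replicate 3 was the highest, and 1401, 1395 and 1299.5 on day 5 (log2 fold change -1.22, SE 0.13, limma adjusted p 0.000681). SNHG8, the host of SNORA24, had 4494, 4208 and 5527 on day 3 and 2065, 2075 and 2087 on day 5 (log2 fold change -1.18, SE 0.12, limma adjusted p 0.000514). SNHG15, the host of SNORA9, had 1869, 1883 and 2202 on day 3 and 727, 725 and 899 on day 5 (log2 fold change -1.34, SE 0.12, limma adjusted p 0.000422). In all 3 genes the day 5 libraries stood well under the lowest day 3 library, and the changes of DANCR (-1.33), SNHG8 (-1.14) and SNHG15 (-1.47) were of like size after the correction for GC content and length.

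EPB41L4A-AS1, transcribed against the gene EPB41L4A and the host of SNORA13, had 2076, 2046 and 2338 scaled reads on day 3 and 980.4, 915 and 984 on day 5 (log2 fold change -1.16, SE 0.09, limma adjusted p 0.000261). EPB41L4A on the other strand moved the opposite way, from 156, 184 and 179 to 215, 222 and 237 (log2 fold change 0.38, adjusted p 0.0161). Counting was stranded, so that reads of the antisense gene were kept apart from it. SNHG9, a short gene that hosts SNORA78, had 177, 177 and 181 scaled reads on day 3 and 88.9, 61.1 and 62.1 on day 5 (log2 fold change -1.35, SE 0.16, limma adjusted p 0.000855).

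SNHG7, SNHG17 and SNHG11 fell by less. SNHG7, the host of SNORA17A and SNORA17B, had 2406, 2486 and 2719 scaled reads on day 3 and 1668, 1466 and 1603 on day 5 (log2 fold change -0.68, SE 0.09, limma adjusted p 0.00136). It was the GC-richest host gene, at 65.9%, and the correction for GC content and length took its log2 fold change to -1.32. SNHG17, the host of most SNORA71 guides, had 1857, 1729.6 and 1922 on day 3 and 1525, 1376 and 1385 on day 5 (log2 fold change -0.36, SE 0.09, limma adjusted p 0.0128). Without day 5 replicate 2 its adjusted p was 0.0518. SNHG11, the host of SNORA60 and SNORA71E, had 233, 212 and 265 on day 3 and 182, 168 and 147 on day 5 (log2 fold change -0.51, SE 0.12, limma adjusted p 0.0147).

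The 3 hosts of scaRNAs fell. SNHG10, with SCARNA13, had 437, 454 and 485 scaled reads on day 3 and 296, 242 and 254 on day 5 (log2 fold change -0.80, SE 0.10, limma adjusted p 0.00124). SNHG20, with SCARNA16, had 539, 590.3 and 581 on day 3 and 436, 418 and 363 on day 5 (log2 fold change -0.49, SE 0.10, limma adjusted p 0.00667). SNHG20 shares its strand with SEC14L1, a gene that rose in the same libraries (log2 fold change 1.02), so that any read of SEC14L1 counted for SNHG20 would raise the day 5 value. After the correction for GC content and length SNHG20 stood at -0.09 (adjusted p 0.464). SNHG21, with SCARNA15, was low throughout, at 38.6, 40.2 and 41.1 on day 3 and 18.4, 20.4 and 23.8 on day 5 (log2 fold change -0.91, SE 0.11, limma adjusted p 0.000923), and the correction took it to -0.33 (adjusted p 0.033).

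The other 4 host genes were close to the limit of measurement or showed no called change. SNHG31 had 87.8, 90.9 and 76.5 scaled reads on day 3 and 57.5, 91.1 and 68.3 on day 5, and the days overlapped (log2 fold change -0.25, 95% confidence interval -0.70 to 0.19, limma adjusted p 0.273). Without day 5 replicate 2, the highest of the later libraries, it was called lower (-0.43, adjusted p 0.0490), whereas the correction for GC content and length turned its value to 0.19 (adjusted p 0.407). SNHG28, for which RefSeq places no guide RNA inside the gene, was the only host gene with a value above 0 in the fit described here. It had 27.2, 12.4 and 28.4 on day 3 and 41.2, 39.7 and 36.2 on day 5 (log2 fold change 0.84, SE 0.31, limma adjusted p 0.0605). It was called higher by edgeR on the recovered reads (adjusted p 0.0293), with scaling to library totals (0.0457), without day 3 replicate 2 (0.0168) and without day 3 replicate 3 (0.0474).

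SNHG18 and SNHG14 were not tested. SNHG18 was at 0 in all 3 day 3 libraries and at 2, 1 and 1 reads on day 5. SNHG14, the long host of the SNORD115 and SNORD116 clusters in the imprinted region of Prader-Willi syndrome and chiefly active in neurons, stood at 0.878, 1.85 and 0 scaled reads on day 3 and at 0 in the 3 libraries of day 5.

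Set per length, the most abundant host genes were SNHG3, SNHG29 and SNHG1. In RPKM, which are reads per kilobase of annotated exon scaled for the depth of each library, the day 3 means were 122 for SNHG3, 111 for SNHG29, 106 for SNHG1, 92.5 for GAS5 and 85.9 for SNHG16. On day 5 the order was SNHG3 at 85.1, SNHG29 at 70.6, SNHG16 at 68.7, GAS5 at 51.4 and SNHG1 at 42.5, so that SNHG1 passed from the third place to the fifth among these 5. Their annotated exons include rarely used ones, so that these levels depend on the annotation.

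As a whole, the 29 host genes took 0.421, 0.404 and 0.412% of reads on genes on day 3, a mean of 0.412% ± 0.00845 (SD, n = 3). On day 5 they took 0.2490, 0.2481 and 0.2496%, a mean of 0.249% ± 0.000791 (SD, n = 3). The 3 libraries of each day were within a narrow range and the days did not overlap, with a ratio of 0.604 (two-sided exact permutation test p = 0.1, the smallest that 3 against 3 allows). Without SNHG29, the largest member, the ratio was 0.594. The 5 host genes with the most reads made up 69.7% of host gene reads on day 3 and 72.3% on day 5.

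**Figure D3:**
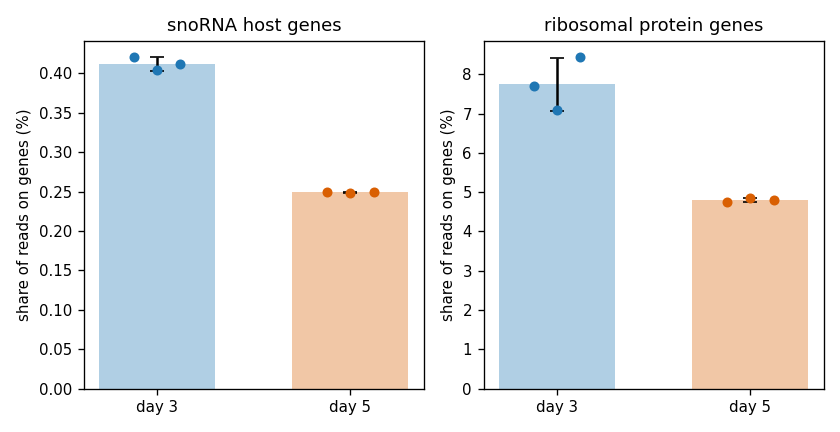
Share of all reads on genes taken by the 29 host genes (left) and by 79 ribosomal protein genes (right), with 1 point per library, bars at the mean and error bars of 1 SD (n = 3). Host genes fell from 0.412% to 0.249% and ribosomal protein genes from 7.75% to 4.80%, with no overlap between days in either panel.

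The small RNAs inside these genes had entries of their own in the table. GENCODE, which lists none inside GAS5, places 136 guide RNA entries inside host genes, some guides being entered more than once. Of these, 84 lie inside SNHG14, which had almost no reads. Of the 136, 19 were in the table and 17 were tested, and why the others were absent was not tested. The library method captures few RNAs this short, and a read of a host intron that crosses a guide cannot be told from the guide. With that limit, 15 of the 17 fell and 0 rose, against 27.6% of all genes tested that fell. Their median log2 fold change was -1.06. After the correction for GC content and length 12 were called lower, against 25.9% of genes, with a median of -0.63. Several of the 17 lie in the same host, so these counts are not independent of one another or of the fall of the hosts.

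SNORA13, inside EPB41L4A-AS1, fell the furthest among the guides. It had 86.0, 88.4 and 125 scaled reads on day 3 and 30.4, 25.7 and 32.1 on day 5 (log2 fold change -1.71, SE 0.17, limma adjusted p 0.000528), whereas its host stood at -1.16. SCARNA13, inside SNHG10, gave more scaled reads than its longer host. It had 2071, 1987 and 2454 on day 3 and 872, 925 and 982 on day 5 (log2 fold change -1.22, SE 0.11, limma adjusted p 0.000379).

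The 3 guides of ZFAS1 were all lower on day 5. SNORD12C had 157, 159 and 227 scaled reads on day 3 and 76.999, 53.6 and 56.95 on day 5 (log2 fold change -1.52, SE 0.20). SNORD12B stood at -1.26 (SE 0.12) and SNORD12 at -0.90 (SE 0.08), the latter close to the -0.87 of ZFAS1. The 4 guides of SNHG17 belong to the SNORA71 family, whose copies are alike in sequence and may share reads. SNORA71A (-1.11), SNORA71D (-1.04) and SNORA71C (-0.88) were called lower, and SNORA71B was not (-0.37, SE 0.15, limma adjusted p 0.0775).

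SNORA73B, inside SNHG3, was the most abundant guide and the other one with no called change. It had 6611, 8939.9 and 7003 scaled reads on day 3 and 6566, 6380.4 and 6701 on day 5 (log2 fold change -0.19, SE 0.13, limma adjusted p 0.259). Its lowest day 3 value lay within the day 5 range, while the reads of SNHG3 had fallen by 0.59 on the log2 scale. SNORD104, inside SNHG25, also changed less than its host, from 243, 242 and 272 to 154, 156 and 152 (log2 fold change -0.70, SE 0.08). The difference between a guide and its host was not tested.

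**Figure D4:**
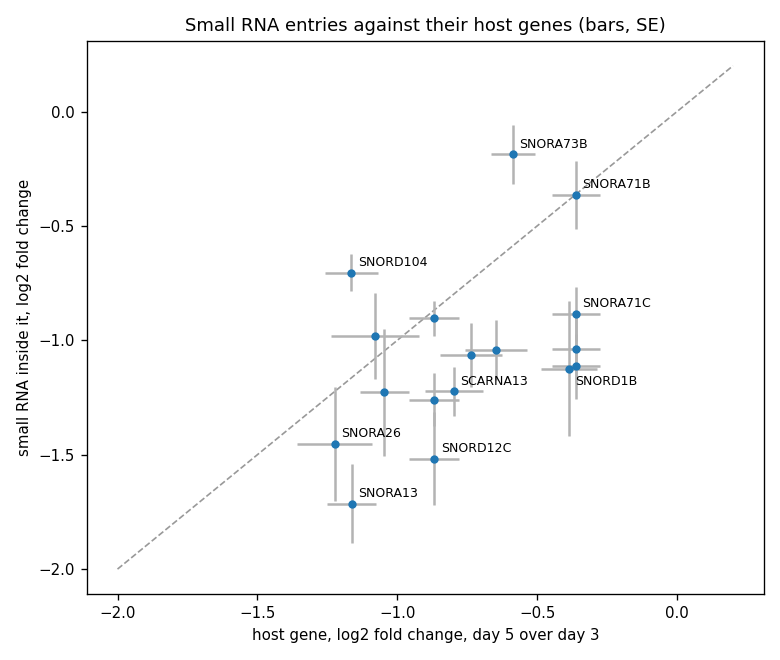
Log2 fold change from day 3 to day 5 of 17 guide RNAs (vertical axis) against that of the host gene around them (horizontal axis), with bars of 1 SE. The dashed line marks equal change, SNORA13 lies lowest at -1.71 and SNORA73B highest at -0.19.

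Several host genes share a start region with a gene on the other strand, which offers a comparison within 1 library. Among the genes tested, 8 host genes had such a partner starting within 1000 bases. The log2 ratio of host to partner was lower in every day 5 library than in every day 3 library for 6 pairs and higher for 1. The hosts of all 6 were themselves called lower, so this count is not independent of their fall, and over single genes 31.7% separated between the days in that direction. With 3 against 3 libraries the two-sided exact permutation p of each of these 7 was 0.1, the smallest possible, and 0.114 when adjusted over the 8 pairs by the Benjamini-Hochberg method.

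SNHG1 and SLC3A2, an amino acid transporter subunit, start 51 bases apart. Their log2 ratio was 2.08, 1.84 and 1.91 on day 3 and 0.33, 0.46 and 0.53 on day 5, a difference of -1.502. SLC3A2 itself had 3487, 3974 and 4396 scaled reads on day 3 and 4674, 4104 and 4078 on day 5, with overlap between the days (log2 fold change 0.12, limma adjusted p 0.41). The reads of SNHG1 fell while those of SLC3A2 were not called. With both genes corrected for GC content and length the difference was -0.72.

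ZFAS1 and ZNFX1, a helicase-domain zinc finger gene, start 248 bases apart. Their log2 ratio was 1.48, 1.24 and 1.37 on day 3 and -0.20, -0.11 and -0.09 on day 5, a difference of -1.49, or -1.14 after the correction. ZNFX1 rose (log2 fold change 0.63, limma adjusted p 0.00213). GAS5 and ZBTB37, a zinc finger gene, start 800 bases apart. Their log2 ratio fell from 2.75, 2.68 and 2.97 to 1.80, 1.63 and 1.84, by 1.04 on the log2 scale, and the difference was -0.34 after the correction. ZBTB37 stood at 0.13 (adjusted p 0.258).

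SNHG19 against TRAF7, a ubiquitin ligase gene, differed by -1.47, or -0.63 after the correction, and TRAF7 rose by 0.82 on the log2 scale. SNHG9 against RPS2, a ribosomal protein gene whose reads exceed those of SNHG9 by far, differed by -1.20, and by -1.16 after the correction. RPS2 was not called (log2 fold change -0.15, adjusted p 0.428). SNHG16 against a noncoding gene with the identifier ENSG00000267546 differed by -0.61, or -0.55 after the correction. That gene had only 27.2 to 42.3 scaled reads. After the correction its log2 fold change was 0.59 and that of SNHG16 was 0.037. For SNHG31 the sign was the other way, by 0.58, or 0.91 after the correction. Its partner BARD1, which acts with BRCA1 in DNA repair, fell (log2 fold change -0.83, limma adjusted p 0.0013). The ratio of SNHG28 to its noncoding partner overlapped between the days, with a difference of 0.59 (exact permutation p = 0.5) and of 1.15 after the correction.

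**Figure D5:**
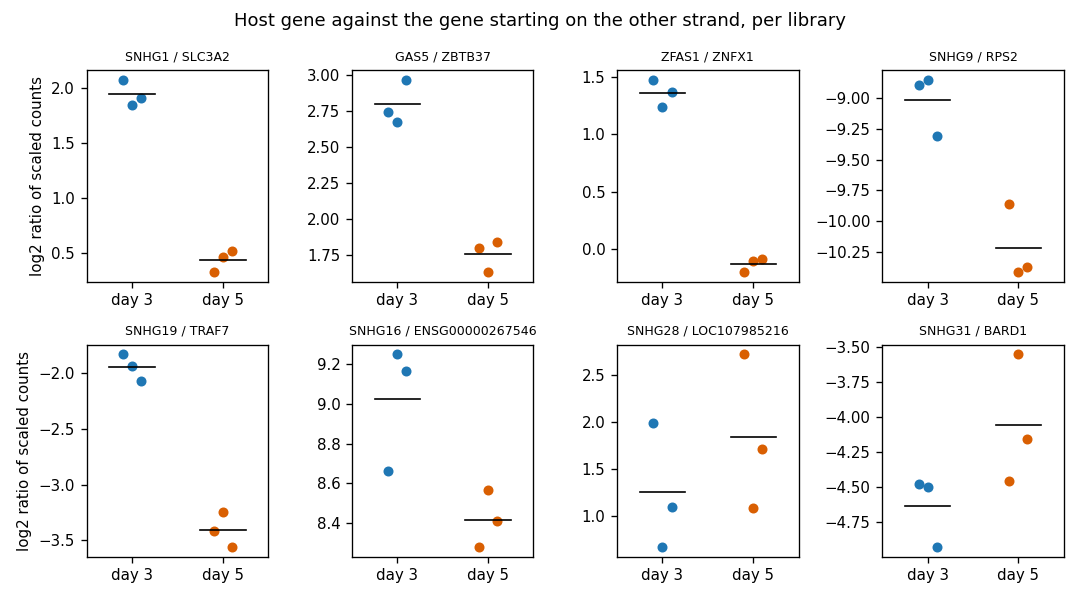
Log2 ratio of host gene to the gene that starts on the other strand (vertical axes, scales differ between panels), with 1 point per library on day 3 (blue) and day 5 (orange) and a line at the mean of 3. The ratio drops without overlap in 6 of the 8 panels, rises for SNHG31 and overlaps for SNHG28.

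Host genes with and without the tract at the start had like medians, and the difference was not tested. The grouping rests on annotated first bases, and starts were not measured here. Only ZFAS1 and SNHG12 had the tract at both annotated starts. SNHG16, counted as lacking it, had the bases CTTTTC shortly after its RefSeq first base. A start annotated a few bases off could thus change the group of a gene. The 7 with the tract that were tested had log2 fold changes from -1.16 to -0.47 and a median of -0.87, and the 20 without it had a median of -0.86. After the correction for GC content and length the medians were -0.48 and -0.58. SNHG1, whose start is printed above without capitals, had a larger fall than each of the 7 before the correction, but after it SNHG12 (-1.18) and ZFAS1 (-0.97) lay below SNHG1 (-0.90). Host genes with 1 guide RNA by RefSeq, 14 in number, had a median of -1.04, and the 12 with at least 2 had a median of -0.70. The motif CACGTG, an E-box that reads the same on both strands and is bound by MYC and other factors, was searched for in the 300 bases from 250 before to 50 after the start. It was found for 2 of 25 host genes (SNHG7 and SNHG30), or 8.0%, against 7.26% of all promoters.

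Ribosomal protein genes, most of which had the tract at an annotated start and many of whose introns hold snoRNAs, were described beside the host genes. Of 79 tested, 73 fell and 0 rose, with a median log2 fold change of -0.92, and RPL39 (-1.27) and RPS7 (-1.25) fell the furthest. Among the 6 that were not called were RPL3 at 0.14 and RPL28 at 0.16. After the correction for GC content and length 70 of 79 were called lower with a median of -0.57. The ribosomal protein genes took 7.75% of reads on day 3 and 4.80% on day 5, a ratio of 0.620.

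Coding genes that hold a snoRNA or scaRNA in an intron moved in both directions. Of 156 tested, 77 fell, 39 rose and 40 were not called, with a median of -0.26. HSPA8, a chaperone gene (-1.45), and MRPL3, a mitochondrial ribosomal protein gene (-1.31), fell the furthest, and PRRC2A (1.504) and ATP2B4, a calcium pump gene (1.47), rose the most. After the correction for GC content and length 76 fell and 28 rose. Some of these genes are ribosomal protein genes and stand in both lists.

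Genes whose proteins bind, assemble or release guide RNAs mostly fell at the RNA level, as the hosts did. Of 19 such genes tested, 12 fell, 2 rose and 5 were not called, and after the correction these counts were the same. NOP10, a subunit of box H/ACA particles, had 3795, 3574 and 4915 scaled reads on day 3 and 1443, 1688 and 1670.2 on day 5 (log2 fold change -1.34, limma adjusted p 0.000672). NOPCHAP1, a chaperone of box C/D assembly, followed at -1.002. FBL, the methyltransferase of box C/D particles, rose by 0.48 on the log2 scale while NOP56 (-0.88) and NOP58 (-0.97) of the same particle fell. RUVBL2, an assembly ATPase, rose by 0.73.

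Genes of nonsense-mediated decay did not move one way. Of 14 tested, 8 rose and 3 fell, but 6 rose and 6 fell when each library was centred on its median gene, and 3 rose and 4 fell after the correction for GC content and length. UPF1, the central helicase, had 1850, 2305 and 2322 scaled reads on day 3 and 5057, 4376 and 4549 on day 5 (log2 fold change 1.12, SE 0.12, limma adjusted p 0.00068). CASC3, a protein of the exon junction complex, rose by 0.82. MAGOH, of the same complex, changed by -1.36, and UPF3B, which bridges the complex to the decay machinery, by -0.62.

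Of 18 genes of the mTORC1 pathway and LARP1, 9 rose and 3 fell, and after the correction for GC content and length 4 rose and 8 fell. DDIT4, a stress-induced inhibitor of mTORC1, had 496, 493 and 529 scaled reads on day 3 and 10577, 11647 and 11961 on day 5 (log2 fold change 4.49, SE 0.08, limma adjusted p 5.6e-05). DEPTOR, another inhibitor, rose from 65.8, 68.6 and 94.98 to 189.8, 176 and 175 (log2 fold change 1.24). EIF4E, the cap-binding protein, fell from 5169, 5122 and 5001 to 2593, 2274 and 2699.5 (log2 fold change -1.02), and RHEB, the GTPase that activates mTORC1, changed by -0.63. These are RNA levels and do not measure the activity of the kinase.

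MicroRNAs inside host genes were read in the small RNA table, whose deposited log2 values cover 3 libraries on each of days 3, 5 and 7. miR-4449, inside DANCR, stood between -1.63 and -0.54 in all 9 libraries. miR-6516-3p, inside SNHG20, had 2.32, 1.32 and 1.41 on day 3, 1.98, 2.64 and 1.82 on day 5 and 2.69, 2.58 and 2.84 on day 7. miR-6516-5p, also inside SNHG20, had 1.91, 1.38 and 0.90 on day 3 and 1.47, 2.43 and 1.46 on day 5. Its day 7 values were 1.52, 2.23 and 2.49. The day 3 and day 5 values of each microRNA overlapped, while all day 7 values of miR-6516-3p lay above its day 3 values. No change was read from values this low.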

How the data were processed

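Libraries were made by the study with a stranded KAPA kit after ribosomal RNA depletion. Per the study's methods, reads were counted on Ensembl genes (version 99, hg38) in CLC Genomics Workbench on the reverse strand with trimmed-mean scaling. FastQC 0.11.8 and MultiQC 1.7 stand in the submitters' processing notes. The authors deposited scaled counts (a signal in which 100% of values were whole reads times 1 factor per library, tolerance 0.01), and the header resembles DESeq2 output, so which tool scaled them is not settled. Their own fold changes and p-values were not used. The deposited microRNA values are log2, their depth unknown.

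Day 5 was compared with day 3 by limma 3.58.1 (R 4.3.3) on log2(value + 1) for genes of at least 10 in 3 of 6 libraries, with Benjamini-Hochberg adjustment, so fold changes of low genes are understated. The test was checked on simulated reads in which few genes changed, by 2-fold, and none followed GC content or length. That check does not cover the broad changes and the GC trend seen here. edgeR 4.0.16 and DESeq2 1.42.0 were run on the recovered reads. Identifiers without a symbol were named with GENCODE v44, and intron guides and starts come from GENCODE and RefSeq. The members, gene lists and tests were chosen with earlier results of these data known. All tested members were named, and from other lists the 2 largest rises and 2 largest falls, with NOP56, NOP58, RPL3 and RPL28 added after their values were seen.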

Additional observations from a re-analysis of the deposited data

How the results depend on the processing

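Host genes called numbered 24 to 26 when 1 library was left out, with a median log2 fold change from -0.91 to -0.80, a day 5 to day 3 ratio of the read share from 0.598 to 0.610 and 6 partner pairs lower throughout. The other counts without 1 library were 9811 to 11380 for all genes, 14 to 16 for guide RNAs, 100 to 114 for coding hosts, 67 to 75 for ribosomal protein genes, 12 to 15 for snoRNP genes, 9 to 10 for nonsense-mediated decay genes and 11 to 13 for the mTORC1 list. A call that also needed a 2-fold change left 3589 genes, 10 host genes, 30 coding hosts, 32 ribosomal protein genes, 2 snoRNP genes, 2 nonsense-mediated decay genes and 4 of the mTORC1 list. Without the filter on low values 7 nonsense-mediated decay genes were called. Centring each library on its median gene moved the median of all genes from 0.01 to -0.16 and that of the host genes to -1.04, and library totals moved them to 0.08 and -0.80.

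Correction for GC content and length, added after seeing the data, gave a host median of -0.53, 22 host genes and 7 nonsense-mediated decay genes called. SNHG16 turned to 0.037 and SNHG31, not called before, to 0.19. The replicate numbers did not pair the libraries (correlations of deviations -0.01, 0.03 and 0.02). With the replicate number as a block 25 host genes, 10533 genes and 71 ribosomal protein genes were called, with 0.604 for the paired read share. Block and GC correction together gave 19 host genes, a host median of -0.53, 4 nonsense-mediated decay genes, SNHG16 at 0.037 and SNHG31 at 0.19, and SNHG32 (adjusted p 0.0688), SNHG11 (0.0642) and SNHG21 (0.0512) then also lost their calls. Over the 27 members and all alternatives, the 2-fold rule included, 395 of 432 values kept direction and side of the threshold. Of the rest, 28 lost the call, 5 gained it and 4 changed sign. Under the 2-fold rule a called gene with a smaller change counted as lost, though its estimate was the same. The sign changes of SNHG16, without and with the block, also lost its call (limma adjusted p 0.741 and 0.727) and are not among the 28. Without the filter SNHG16 (adjusted p 0.0846), SNHG17 (0.0760) and SNHG11 (0.0619) lost their calls. Beyond the 2-fold rule, the cause of these moves was not tested.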
